A study of Homo sapiens with 6 samples.

Results

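The ZNF genes of human chromosome 19 were followed in Huh7 cells, an established line from a human hepatocellular carcinoma, after silencing of SETD5. The genes were taken as every symbol of the form ZNF plus a digit in the expression table that the gene annotation places on chromosome 19, with a mean level of at least 1 CPM (a read count relative to library size) over the 6 libraries. Of 14200 genes in the table, 473 had such a symbol, 232 of these lay on chromosome 19, and 220 reached the level threshold. The remaining 12 were below it, and 1 further symbol could not be placed on any chromosome. No measured change was used to choose the genes, although they were chosen with earlier results of these data known.

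The series held 3 control libraries and 3 libraries of cells transfected with siRNA against SETD5, a SET-domain protein of chromatin, all from Huh7 grown in DMEM with serum. Neither the treatment of the control cells nor the time between transfection and harvest is in the labels. They are also silent on separate cultures within a group, so that the p-values below measure the spread between libraries, possibly a technical one. Libraries were made from poly(A) RNA with a stranded kit. The question of the comparison was how expression differed after SETD5 depletion.

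Most ZNF genes encode proteins with a row of C2H2 zinc fingers, each a short fold around a zinc ion that reads a few bases of DNA. Many carry a KRAB domain at the amino end. KRAB recruits TRIM28, which brings the methyltransferase SETDB1 and HP1 proteins and lays down silent chromatin, above all at transposable elements. Chromosome 19 holds the largest concentration of these genes in the human genome, in clusters that grew by tandem duplication, so that neighbours are often close paralogs. Reads of near-identical paralogs may have been split between them in counting, and the values of single members are uncertain to that extent.

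The siRNA target was lower in the knockdown libraries. SETD5 stood at 212, 210 and 202 CPM in the controls and at 136, 140 and 138 CPM after knockdown, a fall of the mean from 208 ± 5.56 to 138 ± 2.21 CPM (SD, n = 3 per group). Its log2 fold change was -0.59 (SE 0.0318, limma adjusted p = 1.15e-17), and the exact two-sided permutation p was 0.1, the smallest that 3 against 3 libraries can give. Between 14038447 and 17095417 reads per library could be recovered from the values, so that 3 reads, the floor for a gene at 0, correspond to 0.176 to 0.214 CPM. All 10 hepatocyte markers examined were present, with a summed level of 43856 to 44797 CPM in the controls and 40996 to 41362 CPM after knockdown. Of these 10, 7 fell (70%), where 26.5% of all tested genes fell by the test described below. Among the 7, TTR, APOH and APOB fell to 0.619, 0.646 and 0.682 times the control. ALB and FGB rose to 1.07 and 1.18 times, and HNF4A was not called. Of 12 markers of immune, endothelial, stromal and bile duct cells, 7 were in the table. Their summed level was 240.1 to 249.8 CPM in the controls and 415.7 to 424.4 CPM after knockdown, nearly all of it from COL1A2, which went from 135 ± 2.41 to 282 ± 6.06 CPM, and SOX9, which went from 97.1 ± 5.07 to 127 ± 4.21 CPM. The monocyte gene CD14 fell from 3.62 ± 0.169 to 1.76 ± 0.264 CPM with separate groups (limma adjusted p = 8.3e-06), and CD68 was not called, at 6.83 ± 1.0 and 7.92 ± 0.322 CPM. The leukocyte gene PTPRC and the endothelial genes PECAM1 and CDH5 stayed below 2 CPM in every library. CD3E, VWF, DCN, ACTA2 and KRT7 had no row in the table. Whether the marker changes had a part in the values below was not tested. In bulk RNA of this kind, a lower level per cell and fewer expressing cells cannot be told apart.

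After SETD5 knockdown the chromosome 19 ZNF genes were higher far more often than lower. By limma (two-sided, adjusted over the 12865 genes tested, adjusted p under 0.05), 97 of the 220 genes rose (44.1%), 8 fell (3.64%) and 115 were not called. Of all tested genes, 25.7% rose and 26.5% fell. Calls in either direction covered 47.7% of the ZNF genes and 52.1% of all tested genes. The median log2 fold change of the ZNF genes was 0.19, against -0.001 for all tested genes, and 177 of the 220 lay above 0. All fold changes are differences of log2(CPM + 1), a scale on which those of weak genes come out too small.

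The changes were small and widely shared. They ran from -0.35 to 0.59, and no gene reached a 2-fold difference between the group means, the ratios lying between 0.773 and 1.93. A rise of at least 1.2-fold on the log2(CPM + 1) scale that also passed the test was found for 75 genes, or 34.1%. Of all tested genes 12.6% met the same rule. Some called members with a ratio of means above 1.2 fell short of it on that scale, such as ZNF155 (ratio 1.22). Every knockdown library was above every control library for 110 genes (50%, against 28.6% of all tested genes) and below for 12 (5.45%, against 28.8%). The groups overlapped for the other 98. The plot of the cumulative distribution sets the 3 curves side by side.

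**Figure D1:**
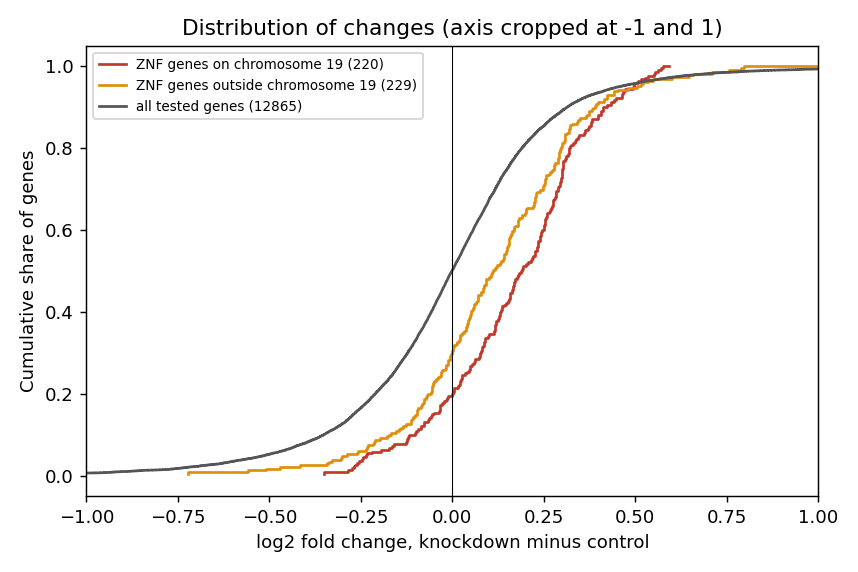
Cumulative share of genes (vertical axis) by log2 fold change, knockdown minus control (horizontal axis, cropped at -1 and 1), for the ZNF genes on chromosome 19 (red), the ZNF genes outside it (orange) and all tested genes (grey). The curve of the 220 chromosome 19 genes crosses its midpoint at 0.19 and that of the 12865 tested genes at -0.001.

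The pattern was seen in every knockdown library, measured from the shared mean of the controls, a baseline that keeps the controls near 0. The median deviation of the 220 genes from the control mean was -0.006, 0.012 and -0.01 in the controls and 0.175, 0.201 and 0.191 in the knockdown libraries, while over all tested genes it lay between -0.001 and 0.001 in every library. Summed over the 220 genes, the level was 2523, 2557 and 2521 CPM in the controls and 2862, 2900 and 2882 CPM after knockdown. The mean rose from 2534 ± 20.2 to 2882 ± 19 CPM (SD, n = 3 per group), 1.14 times the control, with no overlap of the groups. Together the 220 genes made up 0.251 to 0.29% of a library.

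Most of these genes had few reads. Their mean levels ran from 1.08 to 106 CPM with a median of 8.46 CPM, where the median of all tested genes was 29.4 CPM, and 129 of the 220 were under 10 CPM. On a scale per length of transcript, the levels ran from 0.25 to 41.9 CPM per kb with a median of 2.39. The highest were ZNF444 at 41.9, ZNF787 at 34.3, ZNF146 at 28, ZNF428 at 19.4 and ZNF100 at 14.7 CPM per kb.

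The share called rose with the level, in the ZNF genes as in all tested genes. Among members with a mean of 1 to 5 CPM, 12 of 63 rose (19%, against 14.7% of all tested genes in that range). Between 5 and 20 CPM it was 60 of 121 (49.6%, against 21.6%), and at 20 CPM and above 25 of 36 (69.4%, against 30.4%). The falls numbered 0, 4 and 4 in the 3 ranges, or 0, 3.31 and 11.1%, where 15.6, 24.1 and 30.4% of all tested genes fell. Medians of the fold change in the 3 ranges were 0.13, 0.20 and 0.24.

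**Figure D2:**
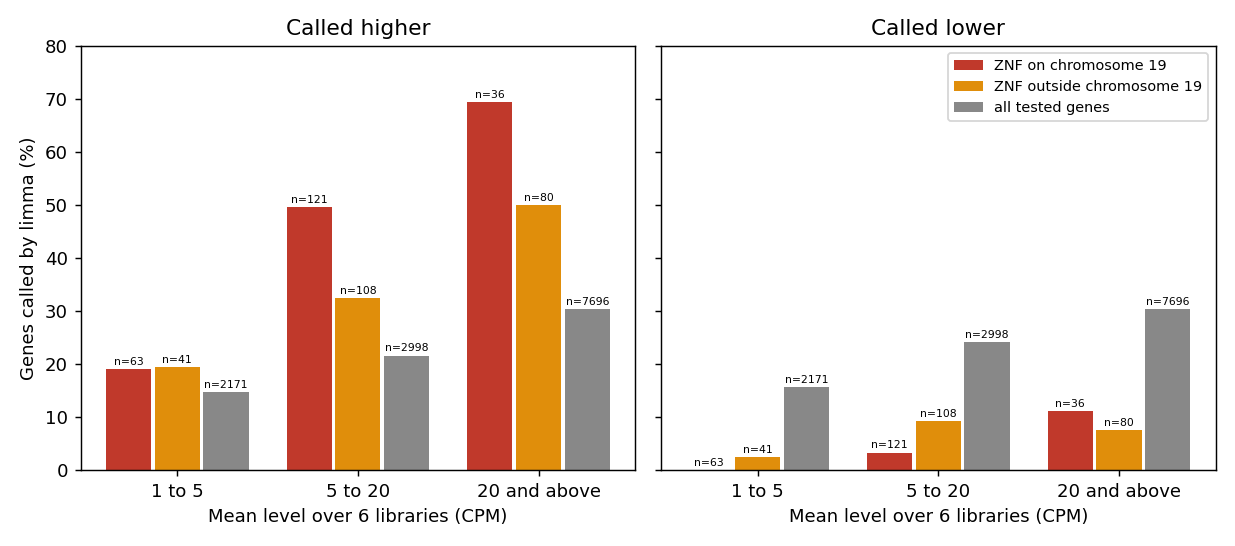
Percent of genes called higher (left) and lower (right) by limma, in 3 ranges of mean level in CPM over the 6 libraries, for ZNF genes on chromosome 19 (red), ZNF genes outside it (orange) and all tested genes (grey), with the number of genes above each bar. Among genes at 20 CPM and above, 69.4% of the chromosome 19 ZNF genes, 50% of the other ZNF genes and 30.4% of all tested genes were higher.

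ZNF genes on other chromosomes leaned the same way, less strongly in the counts over all levels. Of 229 tested, 83 rose (36.2%) and 17 fell (7.42%), with a median of 0.12. Without the third control library, 10 of them fell. At a mean of 1 to 5 CPM the lists were alike, with 19.5% of these genes and 19% of members higher (medians 0.142 and 0.129). Between 5 and 20 CPM the shares were 32.4 and 49.6%, and at 20 CPM and above 50 and 69.4%. Of the 665 other tested genes of chromosome 19, 159 rose (23.9%) and 177 fell (26.6%), with a median of -0.018. Within the stretches covered by the larger ZNF clusters lay 35 tested genes without a ZNF number. Of these, 12 rose (34.3%) and 4 fell (11.4%), with a median of 0.11. The 9 with another zinc finger symbol gave 4 rises (44.4%) and 0 falls (median 0.23). The 26 others gave 8 rises (30.8%) and 4 falls (15.4%), with a median of 0.02. Of all tested genes 25.7% rose and 26.5% fell. The differences between these lists were not tested.

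Along the chromosome, the annotated ZNF genes were divided wherever a gap of more than 500 kb separated them. This gave 21 groups, of which 18 held members, 9 of them at least 5 members each (204 genes in all). They are named here by their first and last annotated ZNF gene, in order from the end of the short arm. The median fold change was above 0 in 7 of these 9 clusters. It was highest in ZNF101 to ZNF254, the last large cluster of the short arm, at 0.37, and next in ZNF175 to ZNF331 on the long arm, at 0.28. In ZNF807 to ZNF792 and in ZNF628 to ZNF835 the medians were -0.051 and -0.035. The share of members that rose was 75% in ZNF101 to ZNF254 and 64.9% in ZNF175 to ZNF331. It was 47.6% in ZNF575 to ZNF180, 45.5% in ZNF414 to ZNF846 and 43.6% in ZNF264 to ZNF446. In ZNF565 to ZNF573 it was 29.2%, in ZNF653 to ZNF791 25% and in ZNF628 to ZNF835 20%. None rose in ZNF807 to ZNF792. Of all tested genes 25.7% rose.

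**Figure D3:**
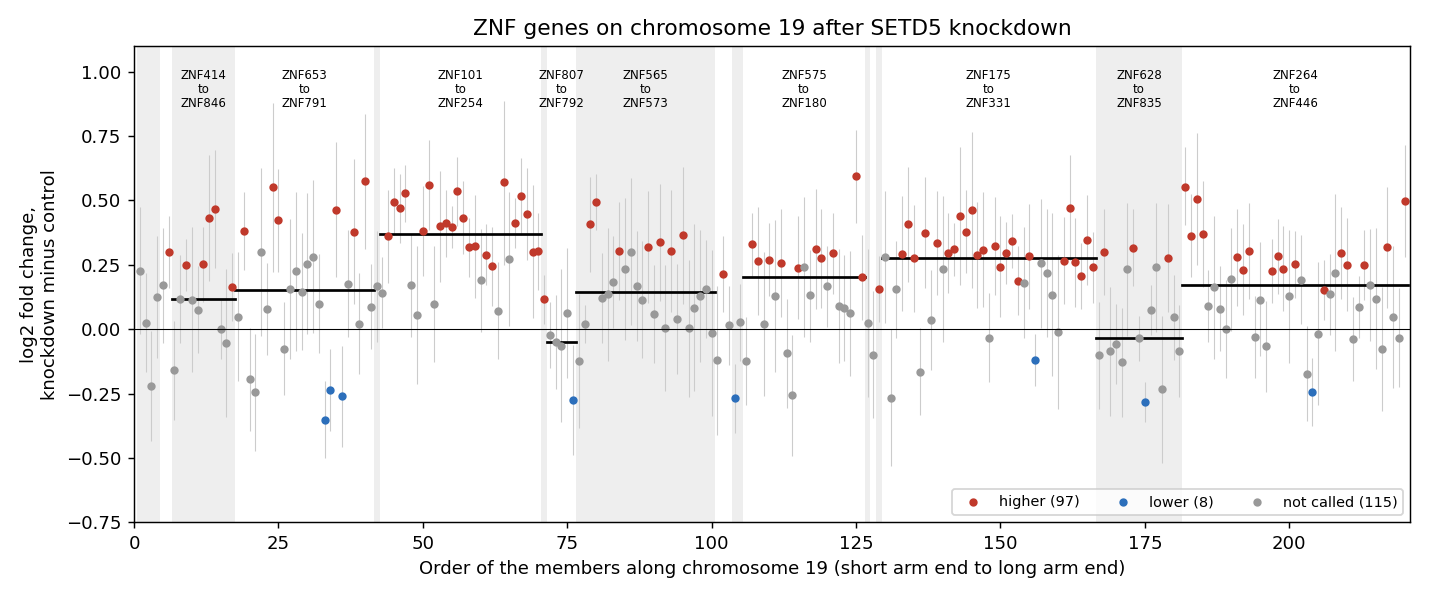
Log2 fold change (knockdown minus control, vertical axis) of each of the 220 ZNF genes in their order along chromosome 19 (horizontal axis), with 95% confidence intervals as grey lines; red points were called higher, blue lower and grey neither, shaded and white bands mark neighbouring clusters, and black bars are the medians of clusters with at least 5 members. All 28 genes of the ZNF101 to ZNF254 cluster lie above 0.

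The ZNF101 to ZNF254 cluster is one of the youngest, rich in genes that arose in primates. Of its 43 annotated ZNF entries 28 were members, and 21 of them rose and none fell. Every knockdown library was above every control for 23 of the 28. The summed level of the cluster was 422, 425 and 416 CPM in the controls and 551, 567 and 551 CPM after knockdown. The mean over 3 libraries was 421 ± 4.23 CPM (SD) in the controls and 556 ± 9.41 CPM after knockdown, 1.32 times the control, with a wide gap between the groups. The genes of this cluster that did not pass the test were ZNF101, ZNF682, ZNF90, ZNF626, ZNF429, ZNF257 and ZNF724P, with fold changes of 0.055 to 0.27.

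ZNF93 and ZNF91 lie in this cluster and are known for silencing primate retrotransposons, ZNF93 at LINE-1 elements and ZNF91 at SVA elements. ZNF93 was at 28.3, 28.7 and 27.4 CPM in the controls and 38.9, 41.1 and 43 CPM after knockdown, and its groups were clearly separate. The fold change was 0.53 (SE 0.0542, limma adjusted p = 2.65e-10). ZNF91, the member with the most fingers at 32, was at 36.8, 38.1 and 37.9 CPM in the controls and 52.3, 49.3 and 49.4 CPM after knockdown. Again no libraries of the 2 groups overlapped, and the fold change was 0.41 (SE 0.0481, limma adjusted p = 4.59e-09).

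ZNF431, a repressor described for the Hedgehog receptor gene PTCH1, and ZNF675, an inhibitor of TRAF6 signalling, were among the 10 strongest rises of the members by log2 fold change. ZNF431 went from 17.5, 16.9 and 17.1 CPM to 24.4, 26.7 and 24.9 CPM (0.54, SE 0.0655, limma adjusted p = 1.29e-08). ZNF675 went from 12.4, 13.5 and 13 CPM to 18.8, 19.6 and 18.5 CPM (0.52, SE 0.0733, limma adjusted p = 2.54e-07). In both genes the lowest knockdown library was well above the highest control.

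ZNF737 and ZNF730, KRAB zinc finger genes of the same cluster without a role stated here, were also in that group of 10. ZNF737 went from 9.08, 11 and 8.93 CPM to 14.8, 14.1 and 15.2 CPM, a fold change of 0.56. ZNF730 had the largest ratio of means, 1.93, but at a level near the threshold: 0.82, 0.836 and 1.5 CPM in the controls and 1.75, 1.78 and 2.57 CPM after knockdown. The control library at 1.5 CPM and the knockdown library at 1.75 CPM were close to touching.

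Genes of the cluster with more reads moved by similar amounts. ZNF714, chosen after its values were seen, was at 63.4, 61.4 and 64 CPM in the controls and at 82.4, 83.3 and 83.7 CPM after knockdown, the libraries of a group lying close together (0.40, SE 0.0393, limma adjusted p = 1.05e-10). ZNF100, the highest of the cluster per length, went from 24.2 ± 0.792 to 29.8 ± 0.651 CPM (0.29). Rises of 0.32 to 0.50 were found for ZNF506, ZNF253, ZNF430, ZNF708 and ZNF738, likewise chosen after their values were seen. ZNF254, the last gene of the cluster, rose by 0.30, and ZNF85 by 0.40, with control libraries that ranged from 6.07 to 9.49 CPM.

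**Figure D4:**
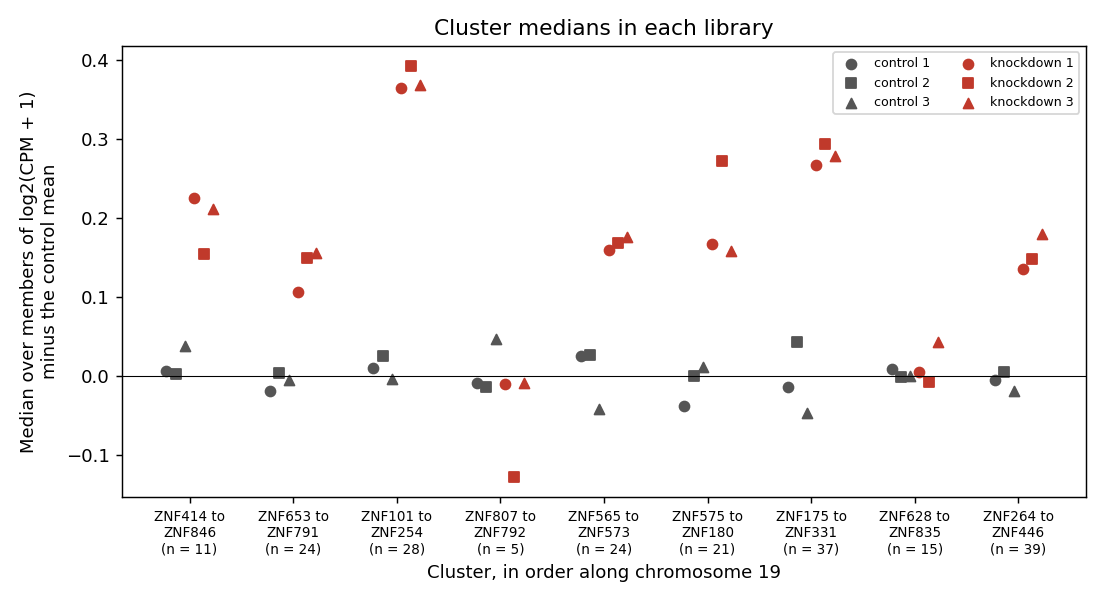
Median over the members of each cluster of log2(CPM + 1) minus the control mean (vertical axis) in each of the 6 libraries (grey control, red knockdown; symbols give the library number), for the 9 clusters with at least 5 members in order along chromosome 19. In the ZNF101 to ZNF254 cluster the knockdown libraries lie at 0.365 to 0.392 and the controls at -0.003 to 0.026, while in the ZNF628 to ZNF835 cluster the groups overlap.

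The ZNF175 to ZNF331 cluster of the long arm held 37 members, of which 24 rose and 1 fell, with 32 above 0. Its summed level was 394, 411 and 391 CPM in the controls and 465, 472 and 469 CPM after knockdown, a rise of the mean from 399 ± 10.4 to 469 ± 3.51 CPM, 1.18 times. ZNF525 had the largest change of the cluster, from 5.39, 5.92 and 6.57 CPM to 9.06, 8.9 and 7.95 CPM (0.47, SE 0.1, limma adjusted p = 1.53e-04). ZNF350, also called ZBRK1, a partner of BRCA1 in repression, went from 4.33, 5.71 and 4.43 CPM to 6.19, 7.0 and 6.88 CPM (0.41). In both genes the knockdown libraries were above all controls.

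ZNF331, an imprinted gene at the end of this cluster, rose from 17.4 ± 0.174 to 20.8 ± 0.965 CPM (0.24). ZNF808, which acts on retroviral elements in pancreas development, went from 4.32 ± 0.361 to 5.59 ± 0.345 CPM (0.31, limma adjusted p = 0.018), a call that was lost without control 1 (0.0569), control 3 (0.0618) or knockdown library 3 (0.0835). ZNF649, a repressor of serum-response transcription, went from 9.13 ± 0.488 to 10.3 ± 1.22 CPM and ZNF83 from 12.5 ± 0.919 to 12.2 ± 1.21 CPM, with overlapping groups in each, and neither passed the test. Leaving out a library in turn gave as few as 18 rises in this cluster and 20 in ZNF101 to ZNF254.

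ZNF160, a repressor of the TLR4 gene, was the 1 gene of the ZNF175 to ZNF331 cluster that was called lower. It was at 42.7, 40.7 and 42.9 CPM in the controls and 37.3, 39.4 and 39.4 CPM after knockdown, separate but close (-0.12, SE 0.0498, limma adjusted p = 0.0424). The call was lost without control 1 (adjusted p = 0.116), control 3 (0.124), knockdown library 1 (0.166) or knockdown library 3 (0.0533). ZNF160 was the highest of its cluster per length, at 9.32 CPM per kb.

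At the end of the long arm, the ZNF264 to ZNF446 cluster had 39 members, with 17 rises, 1 fall and a median of 0.17. Its summed level rose from 430 ± 5.84 to 486 ± 11.3 CPM, 1.13 times. ZNF264 went from 14.5, 12.4 and 14.7 CPM to 21.1, 21.3 and 20 CPM (0.55, SE 0.0747, limma adjusted p = 9.16e-08), with a gap of several CPM between the groups. ZNF460 and ZNF446, a gene with 3 fingers that ends the cluster, rose by 0.51 and 0.50. ZNF446 was at 7.03 CPM in control 1 and near 5 CPM in the other controls, below the 8.31 to 8.56 CPM of the knockdown libraries.

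Several members of this cluster did not follow. ZNF274, which binds the coding ends of zinc finger genes and recruits SETDB1 to them, was at 28.7, 26.7 and 31.2 CPM in the controls and 30.1, 32.1 and 29.8 CPM after knockdown, with overlapping groups (0.086, 95% interval from the fit -0.036 to 0.21). ZNF587B was the single fall, from 22.2, 22.6 and 22.5 CPM to 18.1, 18.9 and 19.4 CPM (-0.24, SE 0.0651, limma adjusted p = 0.00193). Its near neighbour and paralog ZNF587 was called in the other direction, from 35.7 ± 3.83 to 39.6 ± 0.437 CPM (0.15, limma adjusted p = 0.0266), with overlapping groups. That call was lost without control 1 (adjusted p = 0.185), control 3 (0.138) or knockdown library 1 (0.0846), and reads of the 2 paralogs may be split uncertainly.

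The ZNF575 to ZNF180 cluster, on the long arm, gave 10 rises and 0 falls among 21 members, with a median of 0.20 and a summed level 1.17 times the control. It holds the largest log2 fold change of the 220 members, that of ZNF229. The ratio of means of that gene, 1.57, was below the 1.93 of ZNF730. ZNF229 was at 7.26, 7.80 and 8.36 CPM in the controls and 11.9, 12 and 12.9 CPM after knockdown, every knockdown library well above every control (0.59, SE 0.0884, limma adjusted p = 6.29e-07). ZNF428, a small protein in which 1 finger was found, rose from 24.1 ± 1.35 to 30.6 ± 1.65 CPM (0.33). ZNF224, a KRAB repressor of the aldolase A gene, was at 9.56 ± 0.511 and 10.6 ± 0.66 CPM, and its groups overlapped. ZNF222, chosen after its values were seen, lay lower in all 3 knockdown libraries, at 4.75, 3.5 and 4.49 CPM against 4.98, 5.08 and 5.64 CPM, without passing the test (limma adjusted p = 0.0621, and 0.0383 without knockdown library 1).

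In the ZNF565 to ZNF573 cluster 7 of 24 members rose (29.2%, near the 25.7% of all tested genes). In the same cluster 0 fell, where 26.5% of all tested genes did, and 22 lay above 0 (median 0.15, summed level 1.13 times the control). ZNF260, made almost wholly of fingers and a partner of GATA4 in heart cells, went from 27.3, 29.8 and 29.4 CPM to 41, 41.5 and 40.5 CPM, the groups far apart (0.49, SE 0.0535, limma adjusted p = 8.24e-10). ZNF146, also a finger-only protein and the highest of its cluster per length, did not pass the test, with 104, 109 and 103 CPM in the controls and 109, 104 and 107 CPM after knockdown and overlapping groups (0.019, SE 0.0365). ZNF571, nearest the level threshold here, was at 0.813 to 1.67 CPM over the libraries.

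On the short arm, the ZNF414 to ZNF846 cluster gave 5 rises among 11 members (median 0.12). The largest was that of ZNF121, from 4.51, 3.83 and 5.14 CPM to 6.5, 7.36 and 5.86 CPM (0.47, SE 0.113, limma adjusted p = 7.31e-04), with separate groups. ZNF558, known as a repressor of the mitochondrial gene SPATA18, went from 14 ± 1.72 to 15.2 ± 1.14 CPM and did not pass the test. ZNF562, the highest of the cluster per length, was called higher at 20.8, 20.6 and 23.2 CPM against 25.3, 24.1 and 23.3 CPM, with groups that nearly touched (0.16, limma adjusted p = 0.0339). Its call was lost without control 1 (adjusted p = 0.12), control 2 (0.117), knockdown library 1 (0.141) or knockdown library 2 (0.0543). The summed level of the cluster was 154 ± 3.19 CPM in the controls and 173 ± 3.95 CPM after knockdown.

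The ZNF653 to ZNF791 cluster had the most falls by number, with 6 rises (25%) and 3 falls (12.5%) among 24 members. Of all tested genes 25.7% rose and 26.5% fell. The summed level of the cluster was only 1.05 times the control. ZNF490 was its strongest rise, from 2.58, 3.13 and 2.29 CPM to 4.94, 3.62 and 4.84 CPM (0.57, SE 0.128, limma adjusted p = 2.95e-04). ZNF44 was the strongest fall of the 220 members. It was at 18, 18.7 and 19.2 CPM in the controls and at 13.3, 15.2 and 14.7 CPM after knockdown, with no overlap (-0.35, SE 0.0736, limma adjusted p = 1.30e-04).

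ZNF44 and the other 2 falls lie within 4 consecutive members of the cluster. The next gene in order, ZNF563, fell from 14.4 ± 0.701 to 12 ± 0.3 CPM (-0.24, limma adjusted p = 0.0115, and 0.0514 without control 3). After it comes ZNF442, which rose from 2.73 ± 0.633 to 4.1 ± 0.31 CPM (0.46), and then ZNF799, which was called lower at 10.5 ± 0.792 against 8.67 ± 1.32 CPM with overlapping groups (-0.26, limma adjusted p = 0.0231). The ZNF799 call was lost without control 1 (adjusted p = 0.125), knockdown library 1 (0.137) or knockdown library 3 (0.0881). ZNF442 and ZNF799 were chosen after their values were seen. ZNF439, chosen likewise, rose by 0.55 with overlapping groups, at 1.7, 3.34 and 1.5 CPM against 3.81, 4.36 and 2.57 CPM, a call lost without control 3 (adjusted p = 0.0559).

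The 2 clusters with medians below 0 differed in their make-up. ZNF807 to ZNF792 had 5 members, all with a KRAB domain by the search described below, with 0 rises and 1 fall. The fall was that of ZNF792, from 8.37, 6.48 and 7.79 CPM to 5.94, 5.46 and 6.76 CPM with overlapping groups (-0.28, limma adjusted p = 0.0289). It was lost without control 1 (adjusted p = 0.164), control 3 (0.0865), knockdown library 1 (0.0722) or knockdown library 2 (0.125). ZNF302, the highest of that cluster per length, was at 23.3 ± 1.07 and 22.9 ± 0.423 CPM.

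ZNF628 to ZNF835 had 15 members, 4 of them with a KRAB domain found, 3 rises, 1 fall and a summed level of 301 ± 3.89 CPM in the controls and 292 ± 1.08 CPM after knockdown. ZNF444, a SCAN-domain zinc finger protein with 4 fingers, was its fall and the highest of all members per length. It was at 96.7, 92.8 and 92.7 CPM in the controls and at 78.6, 77.1 and 75.5 CPM after knockdown, with a gap of more than 10 CPM between the groups (-0.28, SE 0.0378, limma adjusted p = 7.18e-08). ZNF581 rose from 15 ± 0.458 to 18.9 ± 1.51 CPM (0.32). ZNF542P, a pseudogene chosen after its values were seen, went from 41.8 ± 0.847 to 44.1 ± 1.15 CPM and did not pass the test.

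The 16 members outside the larger clusters gave 4 rises and 1 fall, where 25.7% of all tested genes rose and 26.5% fell. ZNF358 rose from 17.8 ± 1.02 to 22.2 ± 1.36 CPM (0.30, limma adjusted p = 4.04e-04). ZNF473, also called ZFP100, which takes part in the 3' end processing of histone mRNA, went from 21.8, 20.7 and 21.9 CPM to 25.1, 23.4 and 23.6 CPM (0.16, limma adjusted p = 0.0363). Its call was lost without control 1 (0.0537), control 2 (0.113), knockdown library 1 (0.142) or knockdown library 3 (0.054). ZNF780B rose from 14.8 ± 0.312 to 17.3 ± 0.877 CPM (0.21, limma adjusted p = 0.0138, and 0.0621 without knockdown library 2), while its paralog and neighbour ZNF780A was at 17 ± 0.401 and 17.2 ± 1.76 CPM.

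ZNF507 was the fourth of these rises, from 46.4 ± 1.59 to 50.4 ± 1.54 CPM (0.12, limma adjusted p = 0.0361). It was lost without control 1 (0.0529), control 3 (0.161), knockdown library 1 (0.0603) or knockdown library 2 (0.147). ZNF574 was the single fall, from 23.4, 21.8 and 23.5 CPM to 18.8, 19.3 and 18.4 CPM with separate groups (-0.27, limma adjusted p = 7.60e-04). ZNF57, ZNF333, ZNF114 and ZNF296, a factor of pluripotent cells, were not called, at log2 fold changes of -0.22, 0.17, -0.099 and 0.024. ZNF57 passed the test as a fall without knockdown library 3 (adjusted p = 0.0349) and without the variance trend (0.0484), and ZNF333 passed as a rise without the trend (0.0229).

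**Figure D5:**
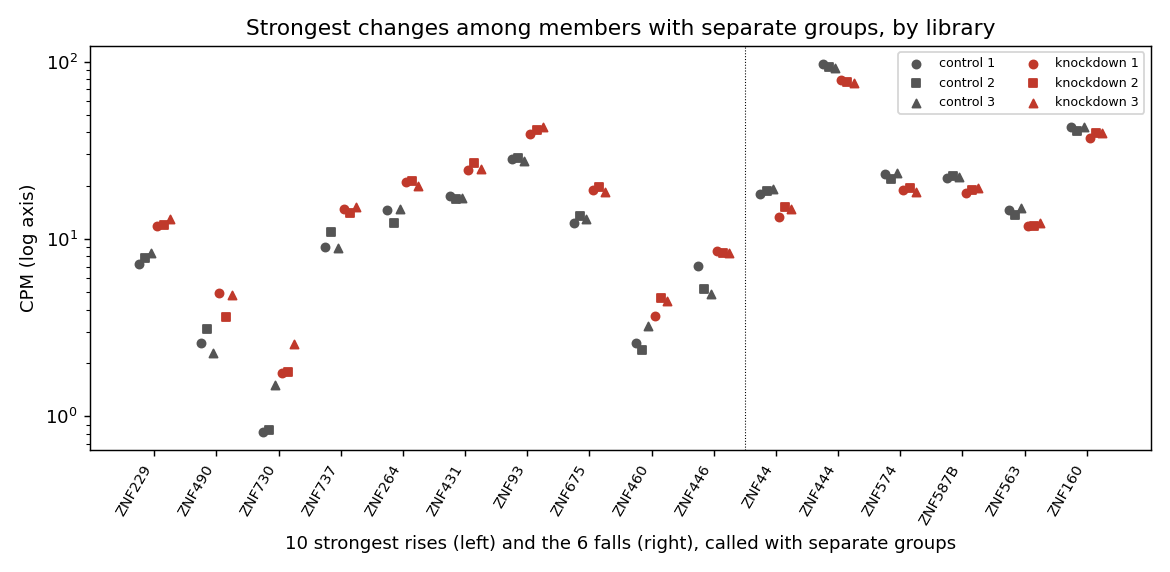
Levels in CPM (vertical log axis) in each of the 6 libraries (grey control, red knockdown; symbols give the library number) for members called with groups that did not overlap: the 10 with the strongest rises (left of the dotted line) and the 6 with falls (right). ZNF229 is at 7.26 to 8.36 CPM in the controls and 11.9 to 12.9 CPM after knockdown, and ZNF444 at 92.7 to 96.7 and 75.5 to 78.6 CPM.

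The falls were few enough to list. ZNF44, ZNF563, ZNF799, ZNF792, ZNF574, ZNF160, ZNF444 and ZNF587B made up all 8, and in 6 of them the groups did not overlap. Without control 3 the count was 5. The 10 strongest rises with separate groups lay in 4 clusters, and 5 of the 10 (ZNF730, ZNF737, ZNF431, ZNF93 and ZNF675) were in ZNF101 to ZNF254. In the plot of single libraries the groups of these rises are apart by more than the range within each, except for ZNF730, ZNF490, ZNF460 and ZNF446. Without the variance trend of the test, 81 of the 97 rises were called again, and of the genes named here ZNF160, ZNF792, ZNF799, ZNF507, ZNF587, ZNF562, ZNF439 and ZNF85 lost their calls (adjusted p = 0.0509 to 0.136). The correction for GC content, length and level described below ended those of ZNF507 (0.228), ZNF473 (0.0673) and ZNF587 (0.152), and that of ZNF160 was also lost by median centring (0.0645) and by voom on recovered reads (0.0517).

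Features of the encoded proteins were read from the annotated coding sequences of the 213 members that have one. A pattern of conserved residues of the KRAB A box was found in 180 of them (84.5%). Of these 180, 84 rose (46.7%) and 6 fell, with a median of 0.22. Of the 33 in which the pattern was not found, 12 rose (36.4%) and 2 fell, with a median of 0.12. Outside chromosome 19, 34 of 83 genes with the pattern rose (41%) and 1 fell (1.2%), with a median of 0.15. Of the 136 without it, 48 rose (35.3%) and 15 fell (11%), with a median of 0.089. Of all tested genes 25.7% rose and 26.5% fell. In ZNF628 to ZNF835, with a median log2 fold change of -0.035, 4 of 15 members had the pattern. The part of cluster or GC content in these counts was not tested. No match says only that these residues were not found in the annotated protein.

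The number of C2H2 fingers had a median of 12 and ran from 0 in the annotated protein of ZNF738 to 32 in ZNF91. With 1 to 9 fingers 19 of 52 genes rose (36.5%) and with 10 to 14 fingers 45 of 88 (51.1%). With 15 or more it was 31 of 72 (43.1%), and the falls in the 3 ranges numbered 1, 3 and 4. The medians of these ranges were 0.16, 0.24 and 0.18, so that no order by finger number appeared. Of all tested genes 25.7% rose and 26.5% fell. Of the 7 members without a coding sequence, 1 rose (14.3%). It was ZNF528-AS1, chosen after its values were seen, at 0.995, 1.18 and 0.857 CPM in the controls and 1.88, 2.03 and 1.44 CPM after knockdown. Its call was lost without knockdown library 2 (adjusted p = 0.0523). It is antisense to ZNF528, and since the use of strand in counting is not given in the sources used here, its reads cannot be told from those of that gene, as for the other 3 antisense members.

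Member transcripts were poor in G and C, with a median GC content of 42.3% against 48.5% for all tested genes. An adjustment of each library for GC content, transcript length and level, chosen after seeing the data, gave 98 rises and 8 falls among 219 members. Their median was 0.21. Of all 12602 genes so adjusted 28.6% rose, with a median of 0.015. In ZNF101 to ZNF254 the adjustment gave 22 rises and a median of 0.38. The word GCACCT, taken up because earlier results of these data pointed to it, was sought on the transcript strand of the 3' UTRs, where 33.6% of 211 members and 33.7% of 11957 tested genes held it. Members with it gave 34 rises and 3 falls among 71 (median 0.17), and those without it 62 rises and 5 falls among 140 (median 0.21). Of all tested genes 25% with the word rose and 33% fell, against 27.9 and 24% without it.

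At the threshold on level, the members just inside were ZNF491 and ZNF878, both with a mean of 1.08 CPM, and ZNF571 at 1.16 CPM. None of the 3 was called, ZNF491 passed as a rise without control 3 (adjusted p = 0.0391), and ZNF878 without the variance trend (0.0297). Just outside were ZNF833P at 0.965, ZNF793 at 0.897 and ZNF701 at 0.895 CPM. Of the 12 genes below the threshold, 10 had a higher mean after knockdown. The 10 include ZNF382, at 0.563 CPM in the controls and 0.796 CPM after knockdown. Among all tested genes, 49.8% had a fold change above 0. The matching share of all genes below the threshold is not given here. Single libraries of the 12 ranged from 0.188 CPM (ZNF471) to 1.6 CPM (ZNF676), the lowest of them near the floor.

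The proteins through which KRAB zinc finger proteins silence DNA were taken from a list of 34 genes of the TRIM28, HUSH and heterochromatin machinery. All 34 were tested, 21 rose (61.8%) and 4 fell (11.8%), with a median of 0.15. All were above 20 CPM, where 30.4% of all tested genes rose and 30.4% fell. TRIM28, the corepressor that KRAB binds, was at 575, 559 and 582 CPM in the controls and 613, 601 and 608 CPM after knockdown, a small rise with separate groups (0.087, SE 0.026, limma adjusted p = 0.00546). SETDB1 went from 34.3 ± 1.71 to 37 ± 1.02 CPM and did not pass the test (limma adjusted p = 0.0976).

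The largest changes of that list were those of ATRX, a remodeler that keeps heterochromatin in place, and SUV39H1, a histone H3 lysine methyltransferase of heterochromatin. ATRX went from 99.1, 104 and 102 CPM to 162, 159 and 162 CPM (0.66, SE 0.0335, limma adjusted p = 1.92e-18). SUV39H1 fell from 64.4, 64.1 and 66.7 CPM to 46.5, 48.1 and 43.8 CPM (-0.49, SE 0.0452, limma adjusted p = 2.13e-11). The groups were far apart in both. CBX5, which encodes HP1 alpha, rose from 248 ± 2.28 to 335 ± 15.1 CPM (0.43), and the DNA methyltransferase gene DNMT3A from 56 ± 1.15 to 71.4 ± 3.06 CPM (0.34). The other falls were DNMT3B, RCOR1 and FAM208A, which encodes the HUSH subunit TASOR, at 0.785, 0.856 and 0.888 times the control.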

How the data were processed

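The authors deposited log2 values of 14200 genes in 6 columns, as normalized CPM by the table's name. Raised back from log2 and less 1, the values of every column were whole multiples of a fixed step (100% within 0.01 of a read), so the deposited log2 values are log2(CPM + 1) of whole reads. The submitters' processing notes name STAR 2.5.1, R 3.3.0 and the builds hg19 and mm10, with no roles; no counting method, scaling or use of strand is given in the sources used here.

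The test took the 12865 genes at or above 1 CPM on average, leaving out 1335, and used limma 3.58.1 in R 4.3.3 on the deposited log2 values: lmFit on group alone, eBayes with a trend of the variance on the mean, two-sided p-values, Benjamini-Hochberg adjustment over all tested genes, threshold 0.05. Adjusted p-values in the text are from this test, and levels are means ± SD. The script was tested on simulated data. Between libraries of a group the chi-square of recovered reads was 1.26 to 2.15 per gene, against 20.6 to 25.3 between groups. Each library was counted as a replicate, but these values cannot show whether the libraries came from separate cultures. Intervals and floors cover counting or library spread only.

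Positions, transcripts and coding sequences came from GENCODE 29 on GRCh38, with 3 members placed by an older or RefSeq symbol. Coordinates are left out, as the builds differ. Fingers were counted in 1 translated transcript per gene (a cysteine pair 2 to 4 residues apart, 12 residues, a histidine pair 3 to 5 residues apart), and the KRAB A box was sought by a residue pattern in place of the alignment first planned. The alternatives tried were other pseudocounts, filters, centring, test settings and cluster gaps, a replicate block, leaving out each library, voom, and a correction for GC content, length and level. edgeR and DESeq2 were not run.

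Members and lists were chosen with earlier results of these data known. Named genes are SETD5, the 10 members with the highest and up to 10 with the lowest fold change among those called with separate groups, the called member with the largest change and the highest per length in each cluster, members with a listed known role, the 3 genes on each side of the level threshold, and up to 4 silencing partners. Other named genes are listed for completeness of a count or were chosen after their values were seen.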

Additional observations from a re-analysis of the deposited data

How the results depend on the processing

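The count of members called higher was 95 to 98 under several settings, with 23.8 to 28.6% of all tested genes higher. These were another pseudocount (0.1), no level filter, a filter at 2 CPM, median centring, voom on the recovered reads and the correction for GC content, length and level. Without the variance trend it was 89, with 22.3% of all tested genes higher. Leaving out a library gave 77 to 89 rises and 5 to 8 falls, with 22.7 to 24.5% of all tested genes higher. The median log2 fold change of the members was then 0.179 to 0.209, with 10 to 16 falls among ZNF genes outside chromosome 19. The median was 0.213 with the pseudocount of 0.1, 0.223 by voom and 0.205 with the GC correction, against 0.19 as reported. Leaving out the members with GCACCT in a 3' UTR left 63 rises and 5 falls, since fewer genes are counted. With a gap of 250 kb, 8 clusters had a median above 0. The number of clusters at that gap is not given here, so this count cannot be set beside the 7 of 9 at 500 kb. Of 933 values of 67 named genes under the alternatives, 871 kept direction and call, 46 lost the call, 7 gained it and 9 changed sign. All 9 sign changes were in genes not called: ZNF302 gave 0.004 with the GC correction, and over left-out libraries ZNF780A ranged from -0.052 to 0.088, ZNF296 from -0.107 to 0.131, ZNF114 from -0.19 to 0.023, ZNF83 from -0.107 to 0.019 and ZNF571 from -0.055 to 0.226. For these the cause was not tested.

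Whether the replicate numbers pair the libraries could not be settled from these values. Deviations of same-numbered libraries correlated at -0.0156, 0.0887 and 0.0654, and libraries 2 and 3 but not library 1 correlated best with their own number. With the replicate block 99 members were higher and 8 lower, and 26.4% of all tested genes were higher, against 25.7% without it. The planned edgeR and DESeq2 alternatives were not run, and voom on the recovered reads was used in their place. At 1 to 5 CPM, where counts are lowest, 19% of members and 14.7% of all tested genes were called higher.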
